A study of Mus musculus with 8 samples.

Results

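The cells described here carried transcripts of both Isl1 and Mef2c, a pair of transcription factor genes used as markers of heart progenitors, and few transcripts of the contractile apparatus. A cell was taken where its mitochondrial share of transcripts was at most 15%, where it held at least 1 unique molecular identifier (UMI, a tag that marks 1 captured RNA molecule) of Isl1 and of Mef2c, none of the epithelial gene Epcam, the head mesenchyme gene Alx1 or the endothelial gene Cdh5, and where fewer than 5 of 13 contractile genes were detected. This gave 365 of 7618 cells, of which 320 came from the 3223 cells of the library labelled Tet triple knockout (TKO) and 45 from the 4395 cells of the library labelled wild type (WT). The values of these 18 genes chose the cells, so their levels are a description, and every comparison of the chosen cells with other cells of their library is a description too.

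The series follows mouse embryonic stem cells on the way to the cardiac lineage and asks what the TET proteins, which oxidise 5-methylcytosine in DNA, contribute to it. Both libraries came from an E14 line with a green fluorescent reporter for Nkx2-5, kept on feeder fibroblasts and differentiated without added drug as embryoid bodies, with hanging drops for 2 days and suspension for 3 more. The TKO library has the genotype Tet-triple knockout and the WT library wild type, both at day 5, and neither the deleted parts of the Tet genes nor the number of clones is given in the sources used here. The other 6 of 8 samples are pull-downs of 5-hydroxymethylcytosine and were not analysed here.

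The tables held 33602635 UMIs in the TKO-labelled library and 37537946 in the WT-labelled library, and kept cells had medians of 9679 and 7849.5 UMIs, in that order of libraries. The chosen cells were alike in depth, with medians of 9267.5 UMIs over the 320 TKO-labelled cells and 9230 over the 45 WT-labelled cells. The headers of the tables share 21 cell barcodes, which cannot be tied to cells of the TKO-labelled table. Each genotype has 1 library, so there is no replicate check, no test was possible, and genotype cannot be told apart from culture or preparation. Ranges in brackets are exact 95% intervals that cover counting error only.

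Isl1 is a LIM homeodomain factor of the second heart field, the progenitor population that adds the outflow tract, the right ventricle and parts of the atria to the early heart tube. Mef2c is a MADS-box factor that activates muscle genes in the same progenitors and stays on as they become cardiomyocytes, while Isl1 is turned down. In the mouse embryo Fgf8, Fgf10 and Tbx1 belong to the anterior part of this field, and Tbx5, Hand1, Sfrp5 and Hcn4 are used for the first heart field and the inflow region. Smyd1 is a muscle-restricted histone methyltransferase, Sfrp5 a secreted Wnt inhibitor, and Rgs5 a regulator of G-protein signalling also found in pericytes.

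The promoters of the 5 marker genes are shown because the cells were chosen or labelled by them and because Gata6, a factor of the family whose core letters are set in capitals, was detected in most of the TKO-labelled cells. Each sequence is the 250 bases before a RefSeq transcription start on GRCm38.p6, written 5′ to 3′ along the gene, with GATAA or its reverse complement in capitals.
Isl1, chr13:116309689-116309938, minus strand: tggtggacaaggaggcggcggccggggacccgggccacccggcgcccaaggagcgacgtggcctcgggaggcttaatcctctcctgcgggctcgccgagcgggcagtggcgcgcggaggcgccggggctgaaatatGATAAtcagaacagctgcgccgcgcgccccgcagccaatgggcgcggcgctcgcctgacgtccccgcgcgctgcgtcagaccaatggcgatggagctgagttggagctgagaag
Mef2c, chr13:83523406-83523655, plus strand: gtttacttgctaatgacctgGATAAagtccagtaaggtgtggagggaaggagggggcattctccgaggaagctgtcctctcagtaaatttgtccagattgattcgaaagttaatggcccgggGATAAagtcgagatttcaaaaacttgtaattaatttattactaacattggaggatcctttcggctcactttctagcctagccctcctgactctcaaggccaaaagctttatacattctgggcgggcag
Sfrp5, chr19:42202253-42202502, minus strand: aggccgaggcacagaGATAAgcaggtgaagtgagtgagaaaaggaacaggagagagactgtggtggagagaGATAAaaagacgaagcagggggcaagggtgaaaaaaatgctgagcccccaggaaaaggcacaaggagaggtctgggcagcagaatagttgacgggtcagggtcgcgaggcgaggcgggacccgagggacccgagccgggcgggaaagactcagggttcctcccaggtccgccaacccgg
Rgs5, chr1:169655251-169655500, plus strand: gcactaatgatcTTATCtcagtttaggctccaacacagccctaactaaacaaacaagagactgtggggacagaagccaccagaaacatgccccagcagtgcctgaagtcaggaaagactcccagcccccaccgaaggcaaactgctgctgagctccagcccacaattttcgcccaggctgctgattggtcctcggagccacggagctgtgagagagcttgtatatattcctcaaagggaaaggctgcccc
Smyd1, chr6:71262282-71262531, minus strand: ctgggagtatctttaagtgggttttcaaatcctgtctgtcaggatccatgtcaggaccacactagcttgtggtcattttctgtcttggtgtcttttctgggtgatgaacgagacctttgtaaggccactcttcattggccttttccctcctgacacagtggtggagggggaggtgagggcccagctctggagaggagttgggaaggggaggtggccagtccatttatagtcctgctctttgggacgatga
The Isl1 window holds 33 CG dinucleotides, Sfrp5 13, this start of Mef2c 6, Rgs5 4 and Smyd1 2, against a median of 6 over all 32851 promoters in the RefSeq table. RefSeq entries were found for 12 of 15 genes, namely the markers and the 12 genes highest in the TKO-labelled cells over other cells of their library. Genes with several starts have several windows, 16 in all. Mef2c has 3, and the one shown is the only one of them with GATAA. Of the 16 windows, 7 hold GATAA on either strand, against 22.6% of all promoters, and 10 hold the NK2 core AAGTG, against 40.7%. The homeodomain core TAATTA is in 2 of the 16 windows and in 4.84% of all promoters, and the E-boxes CACCTG or CAGCTG, of which the second is its own reverse complement, are in 5 of the 16 and in 27.7%. The overlapping MEF2 letters CTATTTA and TATTTAT and the T-box letters TCACACC are in none of the 16 windows and in 6.72% and 3.33% of all promoters, in that order of motifs. A match is only a match of letters.

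The share of such cells was higher in the TKO-labelled library. It was 10.0% of 3197 kept cells (8.99 to 11.1%) in the TKO-labelled library and 1.02% of 4392 kept cells (0.748 to 1.37%) in the WT-labelled library, a 9.77-fold difference in share. The libraries differed more in Isl1 than in Mef2c. An Isl1 UMI was found in 1405 TKO-labelled and 287 WT-labelled cells, and Mef2c in 1079 TKO-labelled and 718 WT-labelled cells. Both were found together in 553 TKO-labelled and 61 WT-labelled cells. The absence rule removed 140 TKO-labelled cells (66 with Epcam, 75 with Alx1, 9 with Cdh5) and 13 WT-labelled cells (3 with Epcam, none with Alx1, 10 with Cdh5), and the contractile limit a further 93 TKO-labelled and 3 WT-labelled cells.

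The rule rests on few molecules per cell, and many cells sat at its edge. Exactly 1 UMI of Isl1 was found in 146 of the 320 TKO-labelled and 28 of the 45 WT-labelled cells, and exactly 1 UMI of each gene in 40 and 15 cells, TKO-labelled first. With 2 UMIs of each gene asked for, 134 TKO-labelled cells (4.19%) and 7 WT-labelled cells (0.159%) were left, 26.3-fold apart in share. Cells with at least 4000 UMIs were also thinned to that depth, which removes the difference in depth, and shallower cells were left out. The shares were then 6.65% of 3007 TKO-labelled and 0.473% of 4019 WT-labelled cells. As a measure of free RNA, globin-rich cells, which should lack both genes, held an Isl1 UMI in 3.46% and a Mef2c UMI in 3.85% of 260 WT-labelled cells of median depth 8811 UMIs, and both together in none. The TKO-labelled library had 8 globin-rich cells, 2 of them with an Isl1 UMI and none with Mef2c. At the contractile limit, 40 TKO-labelled cells inside it had 4 contractile genes and 35 outside it had 5.

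**Figure D1:**
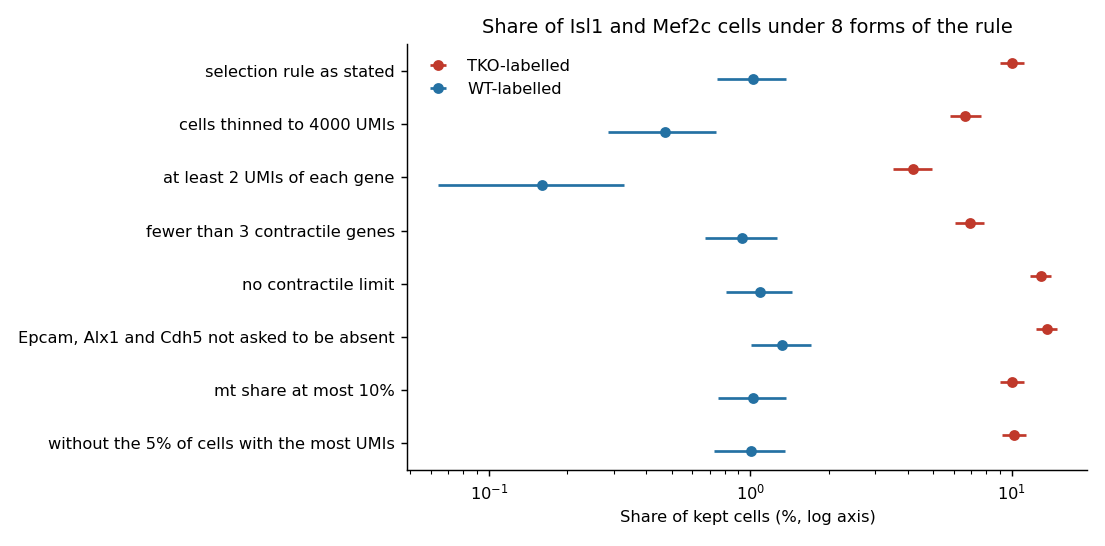
Share of kept cells that met the rule, in percent on a log axis, for the TKO-labelled library (red) and the WT-labelled library (blue) under the rule as stated and 7 other forms of it. Bars are exact 95% binomial intervals, and the TKO-labelled share lies right of the WT-labelled share in each form, from 7.41-fold to 26.3-fold apart.

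The chosen cells carry the label of cardiac progenitor-like cells. In the TKO-labelled library several genes outside the rule that mark heart progenitors stood higher in them, though not these alone. Of the 320 cells, 83.1% held Gata6, 64.7% Hand2, 38.1% Fgf10, 27.5% Gata4, 22.5% Fgf8 and 18.1% Nkx2-5, against 48.4%, 24.6%, 13.2%, 12.8%, 16.6% and 7.51% of the other kept cells of the library. Thinned to 4000 UMIs, Fgf8 stood at 8.77% of the chosen and 9.37% of the other cells, while Gata6 stood at 56.5% and 32.1% and Nkx2-5 at 9.09% and 3.85%. At least 3 second heart field genes outside the rule were found in 108 of the 320 cells (33.8%) and in 17.6% of the other cells. At least 3 genes of the first heart field and inflow list were found in 152 cells (47.5%) and in 21.6% of the others. Hcn4, the pacemaker channel gene of the early inflow region, was at 0 UMIs in the 320 cells, and Tbx5, the T-box factor of the first heart field, was in 11 cells.

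The WT-labelled cells lacked, or held little of, several genes that go with that label. None of the 45 cells held Nkx2-5, where a floor of 3 counts is worth 6.67% of cells and 6.94 CPM (counts per 1e6 UMIs of the summed cells). Tbx1, Six2, Eya1, Foxc2, Sema3c and Hcn4 were also at 0, Smyd1 had 1 UMI, and the 7 UMIs of Sfrp5 lay in 1 cell. Rgs5 was the exception among the markers, with 50 UMIs in 19 of the 45 cells, at 116 CPM against 31.6 CPM in the other WT-labelled cells. No WT-labelled cell of the 45 held 3 second heart field genes outside the rule (0 to 7.87%). The other WT-labelled cells stood at 2.46%, inside that interval, so this count does not set the 45 apart. At least 3 first heart field and inflow genes were found in 18 of the 45 cells (40.0%) and in 48.4% of the other WT-labelled cells. Gata6 and Hand2 were each found in 22 of the 45 cells. In the same library the 26 cells with 5 or more contractile genes held 37 UMIs of Nkx2-5 and 5 of Isl1, so Nkx2-5 was captured there, at 136 CPM, but in other cells than the 45. The 45 are therefore called below by the rule alone, as Isl1 and Mef2c cells of the WT-labelled library.

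**Figure D2:**
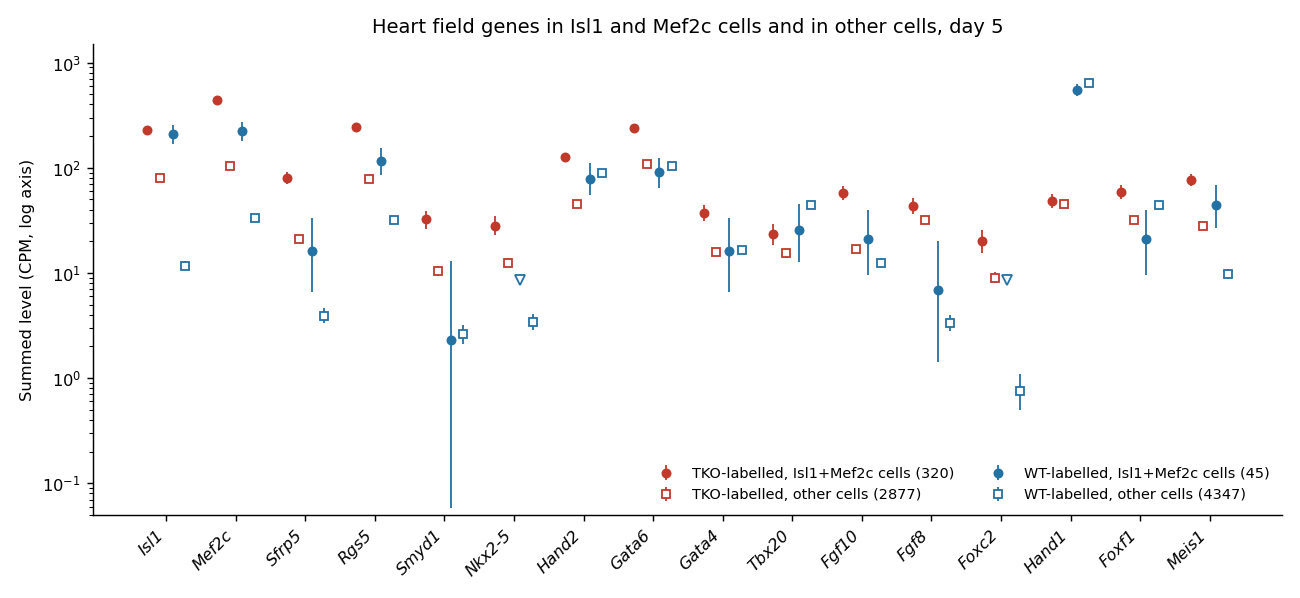
Summed levels (CPM, log axis) of heart field genes in Isl1 and Mef2c cells (filled) and all other kept cells (open) of the TKO-labelled (red) and WT-labelled (blue) library, with exact 95% Poisson intervals. An open triangle marks the upper bound for a gene with no UMI, as for Nkx2-5 and Foxc2 in the 45 WT-labelled cells, while Nkx2-5 stood at 28.2 CPM in the 320 TKO-labelled cells.

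Within the TKO-labelled library, several heart field genes were among the 12 that led the chosen cells over the 2877 other kept cells. Igfbpl1, an insulin-like growth factor binding protein-like gene, stood at 81.8 CPM in the chosen and 15.3 CPM in the other cells, 5.33-fold higher (4.57 to 6.22). Sfrp5 stood at 80.2 and 20.9 CPM (3.84-fold, 3.31 to 4.44), Rgs5 at 243 and 77.6 CPM (3.14-fold, 2.89 to 3.40) and Smyd1 at 32.2 and 10.4 CPM (3.10-fold, 2.46 to 3.89), chosen cells first. Fgf10, a growth factor of the anterior second heart field, stood at 57.6 and 17.0 CPM (3.39-fold, 2.85 to 4.01). Unc45b, a chaperone that folds muscle myosin, was 3.03-fold higher at 59.8 CPM, though it is a gene of the muscle programme and the cells were chosen for few contractile genes. The homeobox genes Hoxb2 at 92.0 CPM, Irx2 at 66.0 CPM and Meis1 at 76.5 CPM were 3.23-fold, 3.18-fold and 2.76-fold higher, in that order. Hand2, a helix-loop-helix factor of the outflow tract and right ventricle, stood at 126 and 44.9 CPM, 2.81-fold higher (2.51 to 3.14). Bmp5, Ptpre and Runx1t1 completed the 12 highest, at 2.55-fold to 3.05-fold.

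The genes lowest in the TKO-labelled cells belong to epithelium, endoderm, blood and pluripotent cells. Trh, the gene of a releasing hormone, stood at 16.4 CPM in the chosen and 584 CPM in the other cells. Cldn6 stood at 12.7 and 345 CPM, Cldn7 at 3.41 and 85.6 CPM and Cdh1 at 2.17 and 69.7 CPM, chosen cells first. These are tight junction and adherens junction genes of epithelia, the tissue whose marker Epcam the rule keeps out. The embryonic globin Hbb-bh1 was at 2.79 and 129 CPM, and Dppa5a, a pluripotency gene, at 4.34 and 63.3 CPM. The others of the 12 lowest were Hba-a1, Car4, Hba-x, Spink1, Crb3 and Slc16a1.

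By list, 5 of 13 second heart field genes outside the rule were at least 2-fold higher in the TKO-labelled cells with a counting interval beyond 1, and 2 were lower, where 1.89% of the 13991 genes tested (those with at least 10 UMIs) were called higher and 5.75% lower. The higher ones were Fgf10, Hand2, Nkx2-5 (2.25-fold), Foxc2 (2.24-fold) and Six2 (2.41-fold, with the order turned round in thinned cells). The lower ones included Eya1, a transcriptional coactivator, at 4.65 and 11.5 CPM. Tbx1 stood at 6.81 CPM in the chosen and 7.10 CPM in the other cells. Bop1, a ribosome biogenesis gene that the list also holds, was at 25.1 and 25.3 CPM. Of 17 tested first heart field and inflow genes, 7 were higher and 1 lower, with the 3 Gata factors between 2.23-fold and 2.36-fold higher. Hand1 stood at 48.6 and 45.6 CPM, 1.07-fold (0.898 to 1.26).

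Cardiac transcription factors had a median log2 ratio of 0.72 over 28 tested genes, beside -0.01 over all genes tested, with 9 called higher and none lower. They included Meis2, at 261 and 111 CPM, Smarcd3, a chromatin remodeller subunit of early heart mesoderm, 2.15-fold higher at 58.2 CPM, and Zfpm2, a partner of GATA4, at 6.19 and 2.91 CPM. The endoderm list had 12 of 13 tested genes lower, the pluripotent list 10 of 12 and the blood list 10 of 11 (9 with genes at 0 taken at a floor of 3 counts). Of 19 tested Hox genes 4 were higher and none lower. Signalling lists moved less. FGF genes had 2 of 19 higher (Fgf10 and Etv4, a target of FGF signalling, at 7.43 and 3.53 CPM) and 2 lower, among them Fgf5 at 3.10 and 24.6 CPM. Of 20 tested BMP genes 2 were higher and none lower, of 24 Wnt genes 2 were higher and 4 lower, of 13 Notch genes none was higher and 1 lower. Among 20 genes of S phase and 20 of G2 and M phase none was called in either direction.

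The 2 closest kinds of cells of the same library, with only Isl1 or only Mef2c, differ from the chosen ones in partly different genes. Cells with Isl1 but no Mef2c (165 cells) held less of the muscle-side genes. Smyd1 stood at 32.2 CPM in the chosen and 2.02 CPM in the Isl1-only cells (3 UMIs, ratio 15.9, 5.31 to 78.6), Sfrp5 at 80.2 and 11.5 CPM (7.01-fold, 4.29 to 12.2) and Nkx2-5 at 28.2 and 5.39 CPM (5.23-fold, 2.55 to 12.5). Irx2 was 5.44-fold, Wnt2 4.31-fold, Rgs5 3.69-fold and Hand2 3.12-fold higher in the chosen cells. Tbx1 at 6.81 and 22.2 CPM and Ebf1, a factor of head mesoderm, at 17.0 and 49.8 CPM were lower in the chosen cells. Fgf8 stood at 43.4 and 43.8 CPM. Of the 12 tested cardiomyocyte genes 7 were higher (6 with genes at 0 taken at a floor of 3 counts) and 2 lower, where 1.77% of 10725 genes tested were called higher and 3.32% lower. Blood genes move with this comparison: 7 of 8 tested were lower in the chosen cells, and the summed level of the list was 13.6 CPM in the chosen and 830 CPM in the Isl1-only cells, with Gata1, Alas2, Ptprc and Spi1 among those at 0 in the chosen cells. The globin share of UMIs in the Isl1-only cells was 0% at the upper quartile and 6.48% in the highest cell. The globin part of that summed level thus came from a minority of the 165 cells. Endoderm genes were lower in the chosen cells too, 12 of 12 tested. Of 9 tested pluripotent genes 5 were lower and 1 higher. The part of blood, endoderm and pluripotent genes in the differences above was not tested.

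Cells with Mef2c but no Isl1 (317 cells) were close to the chosen cells in Gata4, Gata6 and Hand2 and differed in Fgf8, Fgf10 and Hand1. Gata6 stood at 241 CPM in the chosen and 257 CPM in the Mef2c-only cells (0.937-fold, 0.847 to 1.04), Gata4 at 37.2 and 35.5 CPM (1.05-fold, 0.798 to 1.37) and Hand2 at 126 and 112 CPM (1.13-fold, 0.974 to 1.31). Fgf10 stood at 57.6 and 14.0 CPM (4.11-fold, 2.92 to 5.92) and Fgf8 at 43.4 and 13.3 CPM (3.26-fold, 2.27 to 4.77). Of 15 tested FGF genes 3 were higher and none lower. Igfbpl1, Irx2, Foxc1, Foxc2 and Unc45b were 2.10-fold to 2.18-fold higher in the chosen cells. Hand1, a factor of lateral and extraembryonic mesoderm and the left ventricle, stood at 48.6 and 171 CPM (0.284-fold, 0.236 to 0.341). Foxf1, a factor of splanchnic mesoderm, stood at 58.8 and 112 CPM (0.527-fold) and Wnt2, a ligand of the inflow side, at 46.5 and 88.4 CPM (0.525-fold), neither past the 2-fold limit. By list, 4 of 11 tested second heart field genes outside the rule were higher and none lower, where 1.09% of 10972 genes tested were called higher and 1.19% lower. The 3 markers outside the rule, Sfrp5, Rgs5 and Smyd1, were called neither higher nor lower, so they did not set the chosen cells apart from the Mef2c-only cells. Of 24 tested cardiac transcription factors 1 was higher and 2 lower, and of 14 first heart field and inflow genes 1 and 2.

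The cells with 5 or more contractile genes (208 cells, chosen with no condition on Isl1, Mef2c, Epcam, Alx1 or Cdh5) stood higher in heart muscle genes. The split was made on contractile genes at 1 day, so this is a description and gives no order in time. In the chosen and the contractile cells, Des stood at 25.7 and 132 CPM, Smyd1 at 32.2 and 100.2 CPM, Myocd, a coactivator of heart and smooth muscle genes, at 6.50 and 36.1 CPM, and Nkx2-5 at 28.2 and 67.9 CPM. Of 16 tested cardiomyocyte genes outside the contractile rule, 13 were lower in the chosen cells and none higher, where 2.19% of 10805 genes tested were called lower and 1.36% higher. Irx5 at 27.6 and 8.55 CPM, Foxc1 at 45.8 and 21.8 CPM and Tbx1 at 6.81 and 0.475 CPM (1 UMI, ratio 14.3, 2.32 to 592) were higher in the chosen cells. Fgf10 was 1.48-fold higher (1.14 to 1.94) and Gata6 0.730-fold (0.658 to 0.81). Isl1 itself was found in 57.2% of the contractile cells.

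The 140 TKO-labelled cells that held Isl1 and Mef2c but were kept out for Epcam, Alx1 or Cdh5 were taken with no contractile limit. They held up to 9 contractile genes, so some of them are contractile cells. They were deeper, with a median of 11864 UMIs against 9267.5 in the chosen cells. With fewer than 5 contractile genes, 62 of them were kept out by a single UMI. Nkx2-5 stood at 28.2 CPM in the chosen and 22.9 CPM in these cells (1.23-fold, 0.845 to 1.82) and Rgs5 at 243 and 183 CPM (1.33-fold). Sfrp5 at 80.2 and 39.8 CPM (2.02-fold, 1.55 to 2.65) and Hand1 at 48.6 and 21.8 CPM (2.23-fold, 1.57 to 3.24) were higher in the chosen cells. Kdr stood at 69.1 and 134 CPM, and Flt1, another VEGF receptor, at 3.10 and 26.7 CPM (0.116-fold). Of 12 tested endothelium genes 7 were lower in the chosen cells, of 12 endoderm genes 10 and of 12 second heart field genes 1, with none higher, where 0.88% of 10798 genes tested were called higher and 2.64% lower.

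**Figure D3:**
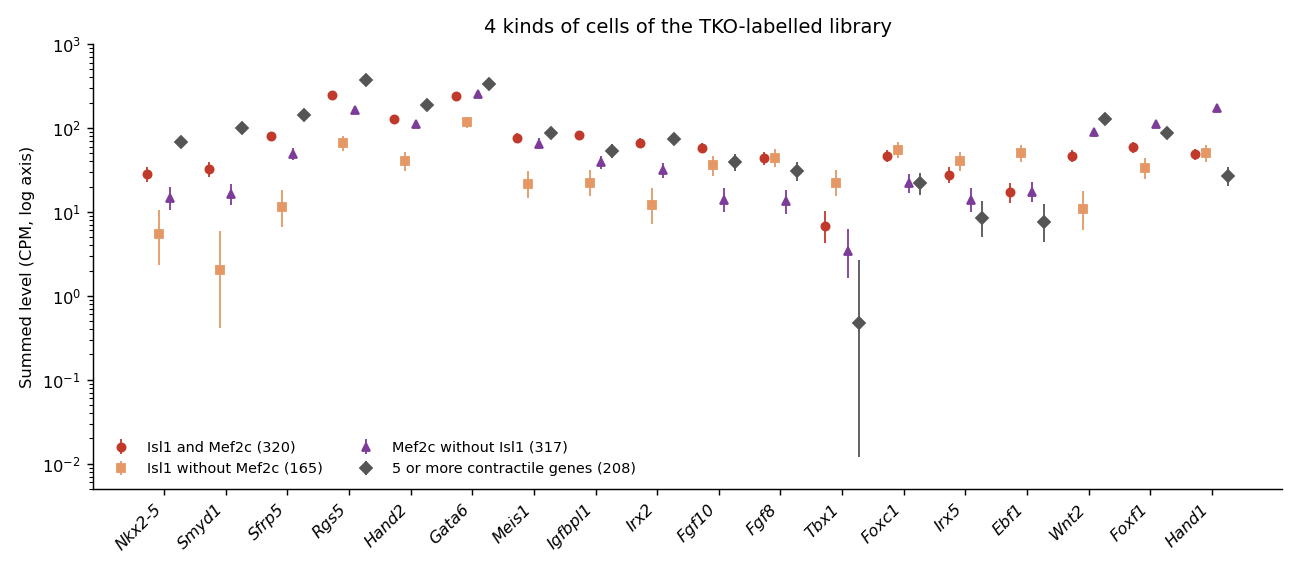
Summed levels (CPM, log axis) in 4 kinds of cells of the TKO-labelled library with exact 95% Poisson intervals. Isl1 and Mef2c cells (red) lie near the Mef2c-only cells (purple) in Gata6 and Hand2 and near the Isl1-only cells (orange) in Fgf8, where the levels were 43.4 and 43.8 CPM, and below the contractile cells (grey) in Smyd1 and Nkx2-5.

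Among the Isl1 and Mef2c cells of the TKO-labelled library, heart muscle genes outside the rule stood higher the more contractile genes a cell held. The 413 cells that met the rule without its contractile limit were divided into 66 cells with no contractile gene, 90 with 1, 65 with 2, 59 with 3, 40 with 4 and 93 with 5 or more, with median depths between 8698 and 9840 UMIs. Nkx2-5 stood at 8.09, 24.5, 30.4, 40.0, 43.6 and 66.3 CPM along that order. Each step was upward, with counting intervals that overlap between neighbouring bins. Smyd1 stood at 9.71, 23.3, 21.7, 43.2, 82.6 and 118 CPM, with 1 step down at 2 genes. Sfrp5 was less even, at 29.1, 76.9, 40.5, 144, 131 and 163 CPM. Unc45b ran between 24.3 and 139 CPM and Des between 9.71 and 149 CPM, each with its lowest value in cells with no contractile gene. Thinned to 4000 UMIs, the share of cells with Smyd1 was 3.28% at no contractile gene, 27.5% at 4 and 30.8% at 5 or more, and that with Nkx2-5 was 1.64%, 15.0% and 20.9%. The number of contractile genes detected is part of the rule and shares its cells and depth with these levels, so the trend is a description.

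Along the same order Isl1 and Fgf10 changed little, Mef2c, Gata6 and Hand2 stood higher at the contractile end, and some other genes stood lower. Isl1 was level, between 203 and 250 CPM, whereas Mef2c stood at 309 CPM with no contractile gene and 727 CPM with 5 or more. Gata6 stood at 160.2 and 335 CPM and Hand2 at 89.0 and 175 CPM at the same ends. Fgf10 stayed between 48.2 and 65.2 CPM. Foxc1, Foxc2 and Ebf1, chosen after their values were seen from the list of head and pharyngeal mesoderm, ran the other way, while Twist1 (48.6 and 43.1 CPM) and Prrx2 (162 and 159 CPM) of that list were close at both ends. Foxc1 stood at 80.9 CPM with no contractile gene and 23.1 CPM with 5 or more, Foxc2 at 34.0 and 7.36 CPM and Ebf1 at 24.3 and 3.16 CPM. The homeobox gene Irx5 stood at 43.7, 39.6, 23.1, 12.8, 9.17 and 6.31 CPM, downward at every step, and in thinned cells was found in 14.8% of cells with no contractile gene and 1.10% of those with 5 or more. Foxc2 rests on few molecules and was found in 13.1% and 3.30% of thinned cells at those ends. In the WT-labelled library the bins held 12, 21, 8, 4, 0 and 3 cells, under 20 in all but the second, and Nkx2-5 had 1 UMI in the 48 cells together, in a cell with 5 or more.

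**Figure D4:**
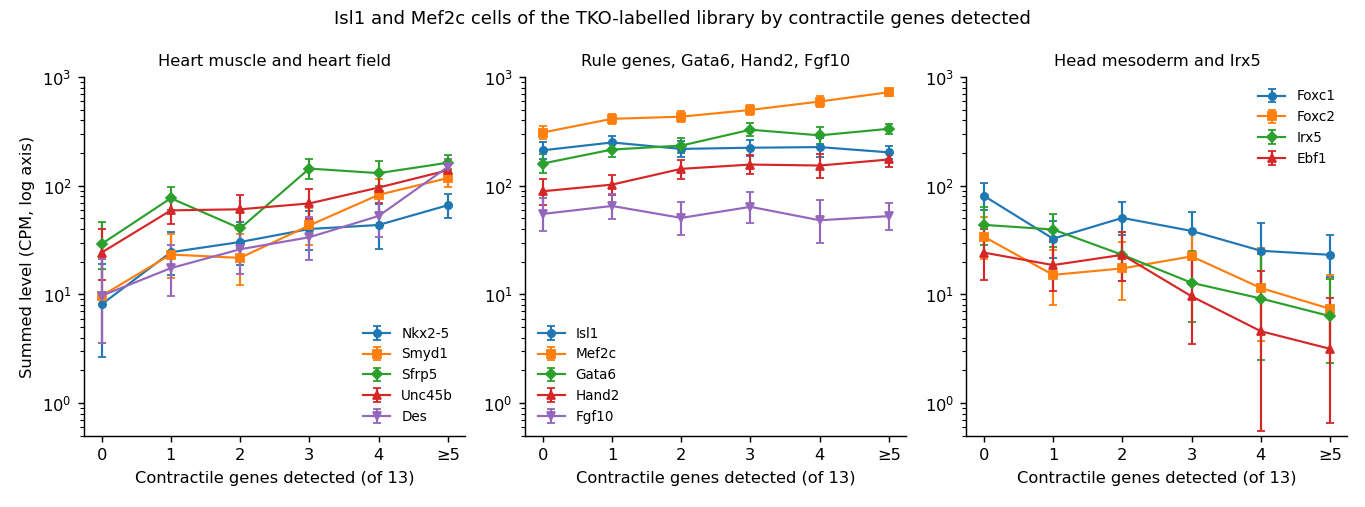
Summed levels (CPM, log axis) in TKO-labelled cells with Isl1 and Mef2c and without Epcam, Alx1 and Cdh5, by the number of contractile genes detected out of 13, with exact 95% Poisson intervals. Nkx2-5 runs from 8.09 to 66.3 CPM and Irx5 from 43.7 to 6.31 CPM along the axis, while Isl1 stays between 203 and 250 CPM.

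Clustering of the 365 cells gave 5 subclusters, and the libraries hardly mixed. Subcluster 1 (112 TKO-labelled cells and 1 WT-labelled) was led by Wnt2 (106 CPM, against 20.4 CPM in the rest of the chosen cells), Nr2f2, a nuclear receptor of atrial and venous cells, Smyd1 (57.1 against 17.8 CPM) and, within the limit of the rule, Tnnt2 and Myl7. Subcluster 2 (103 TKO-labelled cells) was led by genes of mitosis, among them Aspm, Ube2c (527 against 51.7 CPM), Nusap1 and Cenpf, and had the highest median depth, 11045 UMIs. Subcluster 3 (83 TKO-labelled cells) was led by Pdlim3, Ung, Igfbpl1 (142 against 53.1 CPM) and Fgf10 (93.4 against 42.4 CPM), with Fgf8 also among its 10 leading genes, and Tbx1 stood at 17.9 CPM there and at 0 in subcluster 1. None of these subclusters met the marker rule for a name, and Ung, second in subcluster 3, is an S phase gene. The division depends on the setting. At a resolution of 0.3 a cluster of 213 cells was led by Ung, with no Fgf gene among its 10 leading genes. At 1.0 a cluster of 53 cells was led by Ung and another of 30 cells by Fgf8.

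Subcluster 4 was the only one with more than 1 cell of each library, with 21 TKO-labelled and 15 WT-labelled cells and a median depth of 7145 UMIs. Its first leading genes came from the WT-labelled cells: Hbb-bt, Ctla2a, Samsn1, Gria2 and S100g had no UMI in the 21 TKO-labelled cells, and Plvap had 5 UMIs there and 18 in the 15 WT-labelled cells. Cells of both libraries held Etv2, at 86.7 CPM in the TKO-labelled and 85.5 CPM in the WT-labelled cells, Kdr at 390.3 and 137 CPM, Lmo2 at 130.1 and 299 CPM, Tal1 at 32.5 and 111 CPM and Fxyd2 at 699 and 3188 CPM. Kdr, Etv2, Tal1 and Lmo2 are genes of the haemato-endothelial lineage, and Kdr is also found in heart progenitors. Nkx2-5 had 3 UMIs, all in TKO-labelled cells, and Gata6 stood at 163 CPM in the TKO-labelled and 8.55 CPM (1 UMI) in the WT-labelled cells. Subcluster 5 (1 TKO-labelled and 29 WT-labelled cells) was led by Gal, Acta2 (432 against 2.09 CPM), Col1a1 (126 against 0.598 CPM), Postn and Col1a2. It met the marker rule for fibroblast and matrix mesenchyme-like cells, with 4 markers among its 10 leading genes. Hand1 stood at 737 CPM and Msx1 at 262 CPM in it. The leading genes are set against the rest of the chosen cells, which are mostly TKO-labelled. Within the WT-labelled library the fibroblast and matrix list did not set the chosen cells apart. At least 3 of its genes were in 51.1% of the 45 WT-labelled cells and 67.4% of the other WT-labelled cells. Of 12 tested genes of the list, 5 were lower in the 45 and none higher. Of the 45 WT-labelled cells, 29 were thus in subcluster 5, 15 in subcluster 4 and 1 in a subcluster that TKO-labelled cells made up. Subclusters made of 1 library may reflect the library and not a kind of cell.

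**Figure D5:**
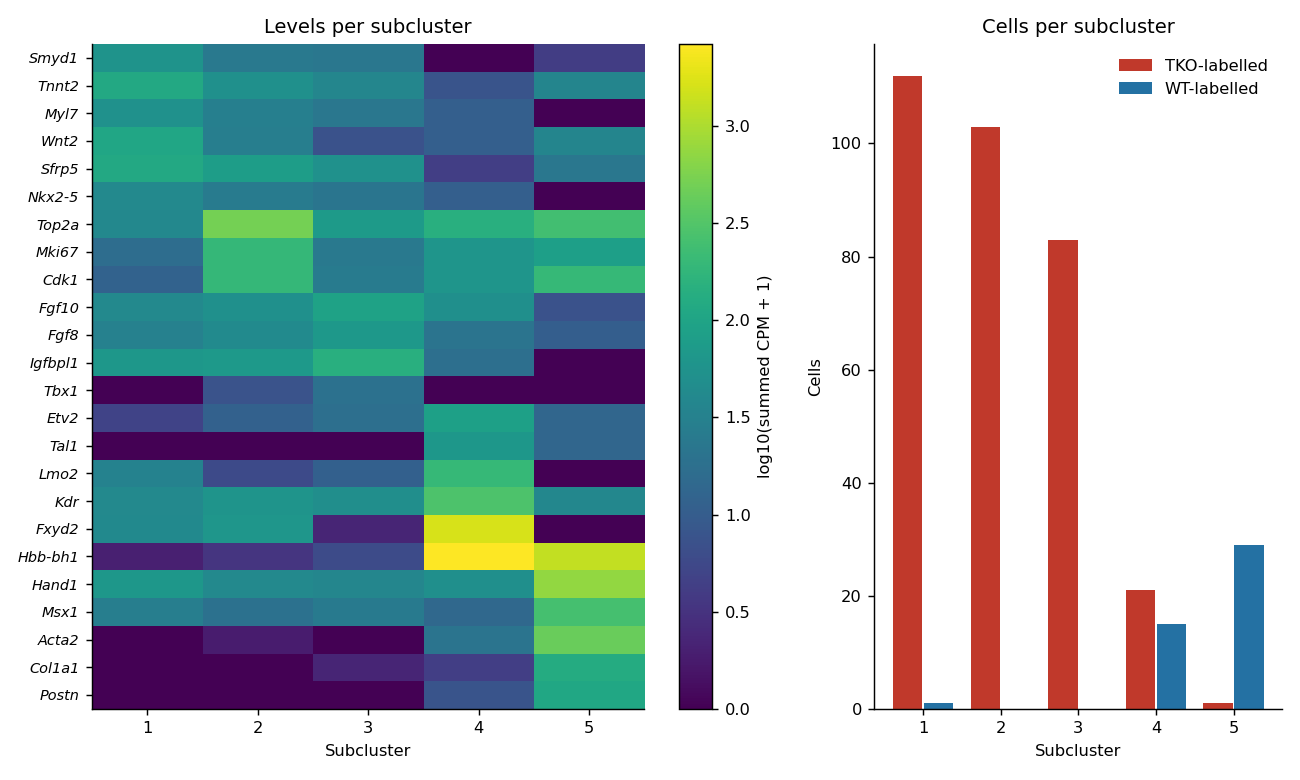
Left, summed levels as log10(CPM + 1) of selected genes in the 5 subclusters of the 365 Isl1 and Mef2c cells. Right, cells of the TKO-labelled (red) and WT-labelled (blue) library in each, with 112, 103 and 83 TKO-labelled cells in subclusters 1 to 3 and 29 WT-labelled cells in subcluster 5.

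Set side by side, the TKO-labelled cells were higher in 6 of 12 tested second heart field genes and 7 of 14 FGF genes, and the WT-labelled cells in 8 of 9 endothelium, 9 of 9 blood and 5 of 9 fibroblast and matrix genes. Of 10287 genes tested, 5.49% were called higher and 5.49% lower in the TKO-labelled cells, and the median log2 ratio of all genes was 0.12. Of the 15 second heart field genes 12 were tested, Isl1 and Mef2c included, and the 6 called higher (5 with genes at 0 taken at a floor of 3 counts), none of them a rule gene, had among them Fgf10, Fgf8, Foxc2, Nkx2-5 and the ribosome biogenesis gene Bop1 (turned round with 2 UMIs of each rule gene). None was called lower. The median log2 ratio of the 12 was 2.24, or 0.87 with genes at 0 set to a floor of 3 counts. Nkx2-5 stood at 28.2 CPM in the TKO-labelled cells against 0 in the WT-labelled cells, 4.06-fold higher with the 0 set to a floor of 3 counts. Smyd1 stood at 32.2 and 2.31 CPM (1 UMI, ratio 13.9, 2.44 to 555), Fgf8 at 43.4 and 6.94 CPM (3 UMIs, ratio 6.24, 2.09 to 30.6) and Sfrp5 at 80.2 and 16.2 CPM (4.95-fold, 2.37 to 12.4), TKO-labelled first. Gata6 stood at 241 CPM in the TKO-labelled and 90.3 CPM in the WT-labelled cells (2.67-fold, 1.94 to 3.78), Meis2 at 261 and 60.2 CPM (4.34-fold, 2.94 to 6.69) and Rgs5 at 243 and 116 CPM (2.10-fold, 1.58 to 2.86).

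Other genes led the TKO-labelled cells by more. Igfbpl1 stood at 81.8 CPM in the TKO-labelled cells and 0 in the WT-labelled cells, with an exact lower limit of 9.51-fold. Irx2 stood at 66.0 CPM and 0, with an exact lower limit of 7.66-fold. Sall1, a zinc finger factor of embryonic stem and progenitor cells, stood at 73.7 and 2.31 CPM (1 UMI in the WT-labelled cells, ratio 31.8, 5.66 to 1263). Rbm24, an RNA-binding protein of muscle splicing, stood at 72.5 and 6.94 CPM (3 UMIs, ratio 10.4, 3.53 to 51.0). Id1, a target of BMP signalling, stood at 701 CPM in the TKO-labelled and 144 CPM in the WT-labelled cells (4.89-fold, 3.80 to 6.40). Crabp2, which carries retinoic acid in the cell, stood at 75.3 and 16.2 CPM (4.65-fold). Siah2, Car14, Ctxn1, Adgrl2 and Emb were the others of the 12 highest. The other cells of the libraries differed in several of these too: Sall1 stood at 73.3 and 4.10 CPM, Id1 at 785 and 242 CPM and Irx2 at 20.7 and 0.297 CPM in all other TKO-labelled and WT-labelled cells. FGF genes had 7 of 14 tested higher and 3 lower, with the feedback genes Il17rd at 41.5 and 4.63 CPM (2 UMIs, ratio 8.96, 2.43 to 74.8) and Spry2 at 39.6 and 13.9 CPM (2.85-fold, 1.28 to 7.92) in TKO-labelled and WT-labelled cells, and Fgf3 at 6.50 and 50.9 CPM among the lower ones.

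Among cardiac factors Hand1 went the other way. Hand1 stood at 48.6 CPM in the TKO-labelled cells, in 10.0% of them, and at 544 CPM in the WT-labelled cells, in 71.1% of them (0.0894-fold, 0.0726 to 0.11). All other cells of the libraries stood at 45.6 CPM (TKO-labelled) and 634 CPM (WT-labelled). Hand2, Tbx20, Smarcd3 and Zfpm1 were among those not past the limit, with Hand2 at 126 and 78.7 CPM (1.60-fold, 1.13 to 2.35) and Tbx20 at 23.2 and 25.5 CPM (0.912-fold, 0.482 to 1.91). Of 24 tested cardiac transcription factors 7 were higher and 2 lower.

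Genes of other tissues were lower in the TKO-labelled cells, and some of their level in the WT-labelled cells came from few cells. Col1a1 had 1 UMI in the TKO-labelled cells (0.310 CPM) and stood at 94.9 CPM in the WT-labelled cells, where 19 of 45 cells held it. Postn stood at 0 in the TKO-labelled and 83.3 CPM in the WT-labelled cells, where 18 cells held it. The exact upper limit of its ratio was 0.0144. Acta2, smooth muscle actin, had 2 UMIs in the TKO-labelled cells (0.619 CPM) and stood at 329 CPM in the WT-labelled cells, in 26 of them. Rspo3, a secreted enhancer of Wnt signalling, stood at 22.3 and 278 CPM (0.0803-fold). Hbb-bh1 stood at 2.79 CPM in the TKO-labelled and 2778 CPM in the WT-labelled cells, but 3 cells held 86.9% of the 1200 UMIs there and the median WT-labelled cell held 1. For Ctla2a, a protease inhibitor gene of endothelium and decidua, 3 cells held 82.1% of 106 UMIs. The summed blood list stood at 13.6 CPM in TKO-labelled and 3988 CPM in WT-labelled cells, with 9 of 9 tested genes lower and Gata1, Alas2, Ptprc and Spi1 among those at 0 in the TKO-labelled cells. At least 3 blood genes were found in 15 of the 45 WT-labelled cells (33.3%) and in 32.7% of the other WT-labelled cells, so at this count they did not stand apart from their library, whereas none of the 320 TKO-labelled cells held 3. The endothelium list had 8 of 9 tested genes lower and none higher, and the fibroblast and matrix list 5 of 9 lower. Of 7 tested smooth muscle genes 3 were lower and 1, Rgs5, higher, with a median log2 ratio of -1.17 that turned to 0.016 with 2 UMIs of Isl1 and Mef2c. With 2 UMIs of Isl1 and Mef2c asked for, which leaves 7 WT-labelled cells, the median log2 ratio of the fibroblast and matrix list turned to 1.23 from its value of -5.59. The part of these cells in the levels of other genes was not tested.

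Within the WT-labelled library some of the genes that led the Isl1 and Mef2c cells rested on few cells. Fxyd2, a regulatory subunit of the sodium pump, stood at 877 CPM in the 45 cells and 86.1 CPM in the 4347 others (10.2-fold, 9.13 to 11.3), in 12 of the 45 cells, 3 of which held 49.1% of its UMIs. Cfc1, a Nodal co-receptor, stood at 120.4 and 14.4 CPM (8.38-fold, 6.18 to 11.2) and Rspo3 at 278 and 40.6 CPM (6.84-fold, 5.63 to 8.24). Gal, the first by ratio, rests on 1 cell with 28 of its 30 UMIs. Samsn1, Gria2, Chst1, Gfpt2, Tgm2, Dusp2, RP23-299D2.2 and Rasgrp2 were the others of the 12 highest, at 5.29-fold to 18.0-fold. Meis1 stood at 44.0 and 9.76 CPM (4.51-fold, 2.68 to 7.14) and Rgs5 at 116 and 31.6 CPM (3.66-fold, 2.70 to 4.86). Both were also at least 2-fold higher in the TKO-labelled cells over their library, as were Cfc1, at 104 and 46.5 CPM there, and Ptpre. Gata6 at 90.3 and 103 CPM, Hand2 at 78.7 and 88.6 CPM and Hand1 at 544 and 634 CPM were close to the rest of the library.

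Of 14 tested second heart field genes 2 were higher, the rule genes Isl1 and Mef2c, and none lower, where 2.53% of 14013 genes tested were called higher and 1.93% lower and the median log2 ratio of all genes was 0.11. Nascent mesoderm genes had 3 of 12 higher, among them Cfc1 and Fgf3 (50.9 and 15.6 CPM), while T, Mesp1 and Mesp2 were at 0 UMIs in the 45 cells. Endothelium genes had 5 of 13 higher and none lower, with Etv2, a master factor of blood and endothelial fate, at 32.4 and 8.22 CPM. The 15 WT-labelled cells of subcluster 4 held 10 UMIs of Etv2 and the 29 of subcluster 5 held 4. The lowest genes were Ttr at 4.63 and 322 CPM, Spink1 at 13.9 and 361 CPM and Hbb-y at 23.1 and 479 CPM, genes of endoderm and red cells, with Rbp4, Hba-x, Emb, Hbb-bs, Lum, Tagln, Chchd10 and Nrk among the others. Of 12 tested fibroblast and matrix genes 5 were lower in the 45 cells and none higher, with Postn at 83.3 and 292 CPM and Col1a2 at 97.2 and 212 CPM, while Col1a1, at 94.9 and 152 CPM (0.623-fold), was not past the 2-fold limit. The smooth muscle gene Acta2 stood at 329 and 767 CPM.

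Beside WT-labelled cells with only Isl1 or only Mef2c, endothelium genes were higher in the summed 45 cells. These genes were not spread evenly over the 45. Pecam1 had 12 UMIs in the 15 WT-labelled cells of subcluster 4 and 2 in the 29 of subcluster 5, and Kdr had 16 and 12. Over 136 cells with Isl1 and no Mef2c, 6 of 8 tested endothelium genes were higher and none lower, where 1.81% of 8819 genes tested were called higher and 2.04% lower. Etv2 stood at 32.4 CPM in the 45 cells and 5.65 CPM in the Isl1-only cells (5.74-fold, 2.17 to 16.8), and Ramp2, a receptor partner of endothelium, at 134 and 22.6 CPM (5.94-fold, 3.72 to 9.69). Over 533 cells with Mef2c and no Isl1, 7 of 10 tested endothelium genes were higher and none lower, where 2.44% of 11014 genes tested were called higher and 2.42% lower. Fxyd2 stood at 877 and 29.7 CPM (29.5-fold, 24.4 to 36.0) and Rspo3 at 278 and 43.7 CPM (6.35-fold, 5.04 to 7.97), the 45 cells first. Nascent mesoderm genes had 2 of 4 tested higher over the Isl1-only cells and 3 of 5 over the Mef2c-only cells, with none lower. Of the second heart field list only Isl1 was higher over the Mef2c-only cells and only Mef2c over the Isl1-only cells. Hand1 stood at 544 CPM in the 45 cells, 599 CPM in the Isl1-only and 665 CPM in the Mef2c-only cells. Other neighbours gave another picture. Beside the 13 cells kept out for Epcam, Alx1 or Cdh5, most of them for the endothelial gene Cdh5, Pecam1 stood at 32.4 CPM in the 45 and 159 CPM in the 13 cells (0.204-fold, 0.0929 to 0.439) and Kdr at 64.8 and 299.7 CPM (0.216-fold, 0.125 to 0.371). Hand1 stood at 544 and 93.6 CPM there (5.81-fold, 3.10 to 12.3), and Gata6 (3 UMIs in the 13 cells) and Rgs5 (2 UMIs) had ratios of 3.21 (1.02 to 16.3) and 6.18 (1.62 to 52.4). Hand2 stood at 78.7 and 18.7 CPM, with 2 UMIs in the 13 cells. Beside the 26 cells with 5 or more contractile genes, Smyd1 stood at 2.31 and 58.7 CPM (1 UMI in the 45 cells, ratio 0.0394, 0.00094 to 0.254) and Sfrp5 at 16.2 and 106 CPM (0.152-fold, 0.0563 to 0.355), the 45 cells first.

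Transcripts of the targeted genes were present in the TKO-labelled cells. Tet1 stood at 22.6 CPM in the TKO-labelled and 13.9 CPM in the WT-labelled cells (1.63-fold, 0.713 to 4.58), Tet2 at 8.05 and 2.31 CPM (1 UMI, ratio 3.48, 0.571 to 143) and Tet3 at 19.5 and 13.9 CPM (1.41-fold, 0.611 to 3.97). The intervals include no change, and tags outside a deleted part check nothing, so the libraries are named by their labels. Dnmt3b, a de novo DNA methyltransferase of early embryonic cells, stood at 72.8 CPM in the TKO-labelled and 18.5 CPM in the WT-labelled cells (3.93-fold, 1.96 to 9.21), and in the TKO-labelled library it was lower in these cells than in the others, at 72.8 and 188 CPM.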

How the data were processed

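Gene by cell tables of the TKO-labelled and WT-labelled single-cell libraries of day 5 were used, 1 per group. The authors deposited counts with no normalization, whole numbers read here as UMIs over 27998 gene rows. The submitters' processing notes name Seurat 3 and mm10 but give them no role. Which aligner, counter, chemistry and filters made the tables is not given in the sources used here. Cells were read by position, since the TKO-labelled header holds 3224 names for 3223 cells. Gene rows were paired by their place in the tables under the WT-labelled names, because 116 TKO-labelled names have -2 where the others have -1. No doublet caller was run, and the 5% of cells with the most UMIs were left out as an alternative. The members, gene lists and alternatives were chosen with earlier results of these data known. Counts were summed over the cells of a kind and divided by their total (CPM), with exact Poisson intervals, exact binomial intervals for ratios and Clopper-Pearson intervals for shares, all at 95% and for counting error only. A gene was tested with at least 10 UMIs in both kinds together, and called at 2-fold (log2 with a prior count of 0.5) with the interval beyond 1. This is a threshold, not a test. The method was checked on simulated counts. A gene at 0 was set to a floor of 3 counts. Calls of such genes rest on the prior count, and counts of calls that change at the floor are given with both values. Named genes were the 12 highest and 12 lowest per main comparison with at least 50 CPM in the higher group and 20 UMIs, without rule, mitochondrial, ribosomal protein, Gm and Rik genes, up to 3 from either end of a list, and any of the heart field and cardiac factor lists. Other genes named within the neighbouring kinds of cells, bins and subclusters were chosen after their values were seen. Subclusters came from 1500 variable genes, 20 components, 15 neighbours and Leiden resolution 0.6 in scanpy 1.11.5 and igraph 0.11.9. A subcluster was named with at least 3 markers of a list among its 10 leading genes. No column of per-sample values was left unused. A few genes that met the naming rule are not reported here.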

Additional observations from a re-analysis of the deposited data

Results flagged for a closer look

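For 5 genes the Isl1 and Mef2c cells lay on opposite sides of the other cells of their library, lower in 1 library and higher in the other, each at 2-fold with a counting interval beyond 1. Each kind of cell has 1 library, so the difference between the libraries was not tested. Values are log2 ratios of these cells over the other cells of the same library. Cyp26a1, which clears retinoic acid, was at -2.60 (TKO-labelled) and 2.31 (WT-labelled), a difference of -4.92. Runx1, a factor of blood formation, was at -1.78 and 1.40, a difference of -3.18, and Tal1, another blood factor, at -1.15 and 1.59, a difference of -2.74, TKO-labelled first. Ramp2, a receptor partner of endothelium, was at -1.45 (TKO-labelled) and 1.24 (WT-labelled), a difference of -2.69. Plxna4, a semaphorin receptor, was at 1.15 (TKO-labelled) and -1.86 (WT-labelled), a difference of 3.01. Levels in the chosen cells were low for most of them. Runx1 stood at 0.929 CPM in the TKO-labelled and 37.0 CPM in the WT-labelled cells, and Plxna4 at 8.67 and 11.6 CPM.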

How the results depend on the processing

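No paired analysis was possible because each group has 1 library. The share of TKO-labelled cells moved beyond its counting interval to 6.65% in cells thinned to 4000 UMIs, 4.19% with 2 UMIs of each gene, 6.91% with fewer than 3 contractile genes, 12.9% with no contractile limit and 13.6% with Epcam, Alx1 and Cdh5 allowed, and that of WT-labelled cells to 0.473% (thinned) and 0.159% (2 UMIs), while a mitochondrial limit of 10% and leaving out the 5% of cells with the most UMIs did not move it so. Against 565 genes higher and 565 lower in TKO-labelled over WT-labelled cells, 2 UMIs of each gene gave 202 and 272, thinning 329 and 352, and a minimum of 30 UMIs 565 and 348. Against 805 lower genes over other TKO-labelled cells and 270 over other WT-labelled cells, thinning gave 487 and 160. A resolution of 0.3 gave 3 subclusters and 1.0 gave 8, and the WT-labelled cells lay in the last of the 3 but for 1. In thinned cells Nkx2-5 was in 1.64% of cells with no contractile gene, and Smyd1 in 27.5% and Sfrp5 in 37.5% of those with 4. With 2 UMIs of each gene, where 7 WT-labelled cells are left, directions turned for the median log2 ratios of TKO-labelled over WT-labelled cells of smooth muscle (0.016), fibroblast and matrix (1.23) and pluripotent genes (-0.24), for Bop1 (-1.06) and, over other WT-labelled cells, for endoderm genes (0.29). In thinned cells Six2 over other TKO-labelled cells turned to -0.17. The cause was not tested. The remaining 1844 values of single genes and lists kept their direction and moved by less than their counting interval and 187 moved by more. Their number limits the 45 WT-labelled cells, where 3 counts are worth 6.94 CPM, and the 13 kept out for Epcam, Alx1 or Cdh5, where they are worth 28.1 CPM.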

Other observations

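Hand1 was found in 32 of the 320 TKO-labelled and 32 of the 45 WT-labelled Isl1 and Mef2c cells. Among the 320 TKO-labelled cells, 178 held both Hand2 and Gata6 and 21 both Hand1 and Hand2. Among the 45 WT-labelled cells, 15 held Hand2 and Gata6 and 22 held Hand1 and Hand2, where Hand2 was found in 207 TKO-labelled and 22 WT-labelled cells. Fgf8 and Fgf10 were found together in 39 TKO-labelled cells, and Tbx1 in 14, of which 11 held Fgf10 and 4 held Rgs5, a gene found in 227 of the 320. Nkx2-5 and Tbx5 were found together in 4 TKO-labelled cells. These are counts of cells with at least 1 UMI and depend on depth.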
